A study of Homo sapiens with 3 samples.

Results

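The 47 genes described here encode the proteins that copy DNA in S phase, with the E2F transcription factors that drive their expression. They were taken as a fixed list of replication and E2F target genes, matched by gene identifier, out of 60609 genes counted in each library. All 47 had reads in every library and all entered the statistical test. In 46 of them the mean level was 5 CPM or more (counts scaled to a common library size, with TMM factors set on the bulk of genes); UHRF1 was just under that limit. RNA was sequenced from NCI-H209, an established line of human small cell lung cancer, a fast-growing neuroendocrine tumour. Every group carried a doxycycline-inducible lentiviral hairpin and was given doxycycline at 1 µg/mL every 2 days. The groups were sh490 and sh1362, 2 different hairpins against the Src-family kinase YES1, and shGFP, a control hairpin against a gene that human cells lack. There was 1 library of each, so a difference between single libraries has no replicate check.

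Replication starts with licensing in G1: the origin recognition complex, CDC6 and CDT1 load the MCM2 to MCM7 helicase onto DNA in an inactive form. At S phase entry CDC45, GINS and MCM10 turn the helicase on, primase and the DNA polymerases follow, and the PCNA ring, loaded by replication factor C, holds the polymerases on the template. Most of these genes are transcribed by E2F factors, which the RB protein restrains; small cell lung cancers commonly lose RB and divide fast.

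What the listed genes share in sequence was read from RefSeq promoters (GRCh38.p14, 250 bases before to 50 after the start), available for 41 of the 47. An E2F motif was counted where TTTCCCGC, TTTGGCGC, TTTGCCGC or TTTCGCGC stood on either strand. It stood in 23 of the 41 genes, 56.1%, against 6.73% of 9338 genes with a promoter and a mean of 5 CPM or more, and 3.99% of all 27305 genes with a promoter. The CHR, the element of late cell-cycle genes (TTTGAA or TTCGAA, either strand), stood in 2 of 41, 4.88%, against 15.7% of those expressed genes. In a list of 13 G2/M genes, 12 with a promoter, the pattern was the other way round: 8 held a CHR and 1 an E2F motif. A CCAAT box (CCAAT, either strand) was common in all sets, at 61.0% of the replication genes, 91.7% of the G2/M genes and 44.2% of the expressed genes. A match is a run of letters and not evidence of binding. The replication list was chosen to hold E2F targets and the G2/M list to hold late cell-cycle genes. Their shares of E2F motif and CHR therefore describe the lists and are not a result of these libraries.

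**Figure D1:**
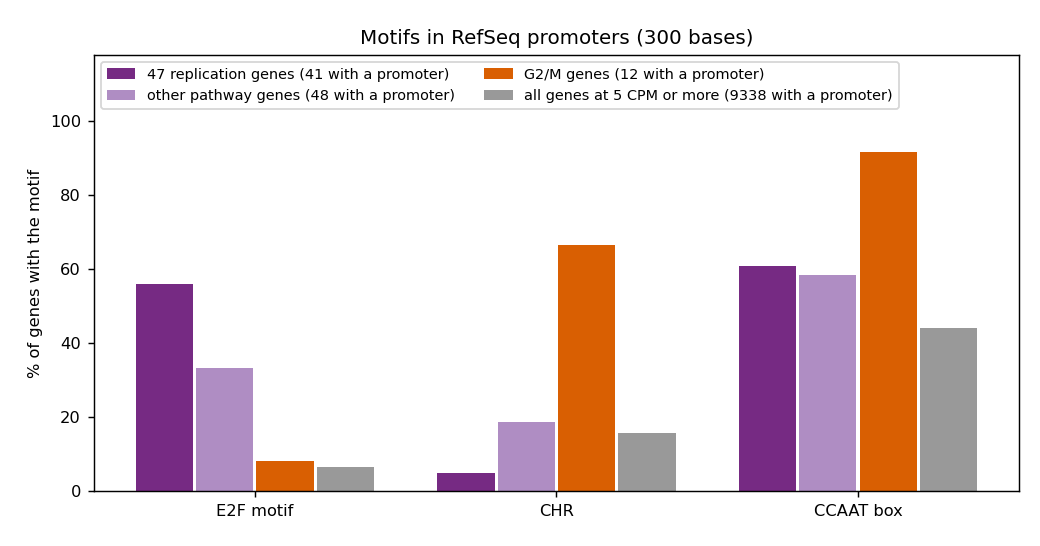
Share of genes (%) whose RefSeq promoter of 300 bases holds an E2F motif, a CHR or a CCAAT box, for the replication genes, other genes of the pathway, G2/M genes and all genes at 5 CPM or more. The E2F bar of the replication genes reaches 56.1% and their CHR bar 4.88%, while the G2/M genes reach 8.33% and 66.7%.

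The E2F matches lay between 187 bases before the start, in MCM7, and 8 after it, in CDC6. The windows below, each of 30 bases on the strand of the gene, show 1 match for genes of most roles, with the motif in capitals. They are the licensing gene CDC6 (first motif base 8 bases into the transcript), the helicase genes MCM6 (90 bases before the start) and MCM7 (9 before), and the polymerase epsilon genes POLE (18 before) and POLE2 (5 before). The sliding clamp PCNA (59 before), thymidylate synthase TYMS (39 before), the ubiquitin ligase receptor DTL (8 before), the fork protection gene TIPIN (66 before) and the factors E2F1 (20 before) and E2F2 (42 before) follow.
CDC6 (chr17:40287875-40287904, plus strand): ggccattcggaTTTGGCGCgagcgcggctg
MCM6 (chr2:135876515-135876544, minus strand): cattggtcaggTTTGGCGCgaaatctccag
MCM7 (chr7:100101388-100101417, minus strand): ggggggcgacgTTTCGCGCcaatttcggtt
POLE (chr12:132687342-132687371, minus strand): tgggtgggagcGCGCCAAAtttctcccctg
POLE2 (chr14:49688201-49688230, minus strand): ctgcggcggtgGCGCCAAAtcgcaaatatg
PCNA (chr20:5126663-5126692, minus strand): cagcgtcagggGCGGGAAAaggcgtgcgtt
TYMS (chr18:657603-657632, plus strand): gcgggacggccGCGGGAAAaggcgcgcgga
DTL (chr1:212035729-212035758, plus strand): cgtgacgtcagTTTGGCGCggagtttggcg
TIPIN (chr15:66356733-66356762, minus strand): ccccgcacggaTTTGGCGCcaaacgctgcg
E2F1 (chr20:33686387-33686416, minus strand): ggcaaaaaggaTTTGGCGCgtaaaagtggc
E2F2 (chr1:23531257-23531286, minus strand): gcggcacgacgTTTGGCGCtaaaaaaaaaa
In POLE, POLE2, PCNA and TYMS the capitals are the reverse complement of the motif.

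The libraries differed in ways that stand beside the results. Totals were 7791747 counts for sh490, 7421552 for sh1362 and 4899006 for shGFP, and mitochondrial transcripts took 5.50%, 7.78% and 5.47% of them. YES1 itself had 163, 216 and 1465 counts, so it was at 6.79% of the shGFP level with sh490 (exact 95% counting interval 5.74 to 7.98) and at 9.66% with sh1362 (8.33 to 11.1). The neuroendocrine markers of the line (8 of 8) were all present in each library. Red cell markers (8 genes) summed to 18.8 CPM with sh490, 20.5 with sh1362 and 737 with shGFP, nearly all of the last from globin genes, with AHSP at 0 everywhere. White cell markers (10 genes) summed to 9.33 CPM in shGFP, 0.632 in sh490 and 2.44 in sh1362, with CD3E and CD3D at 0 everywhere; 6 fibroblast markers summed to 6.93 to 9.36 CPM. The 4 endothelial markers, mostly KDR, summed to 19.9 CPM in shGFP, 11.6 in sh490 and 5.43 in sh1362. The part of these in the results below was not tested. All counting intervals are exact 95% intervals and cover counting error only, since the reads carry no molecular identifiers and may repeat a molecule.

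The replication genes were well expressed, over a wide range of levels. Per exon length (TPM, reads per length scaled to the same total), shGFP values ran from 3.65 for UHRF1, a reader of hemimethylated DNA, to 792 for PCNA. After PCNA came MCM7 at 446, RRM1 at 322 and SLBP at 264 TPM. Subunits of one complex were far apart on this scale, which divides by all annotated exon bases and leaves out reads on shared bases. Those lengths were 7268 bases for MCM5, 4386 for MCM7 and 5105 for GINS3. GINS3 had 46 counts in shGFP and shares 10.9% of its exon bases with another gene. The gaps that follow may thus differ from those between the messages themselves. Within the MCM2 to MCM7 hexamer MCM7 was highest and MCM5 lowest in all 3 libraries, 34.2-fold apart in shGFP (446 against 13.0 TPM), 29.2-fold in sh490 and 30.4-fold in sh1362. The GINS genes spanned 28.0-fold in shGFP, from GINS3 at 7.05 to GINS2 at 198 TPM. The clamp loader genes RFC2 to RFC5 lay within 1.91-fold in shGFP, from RFC4 at 112 to RFC2 at 213 TPM.

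**Figure D2:**
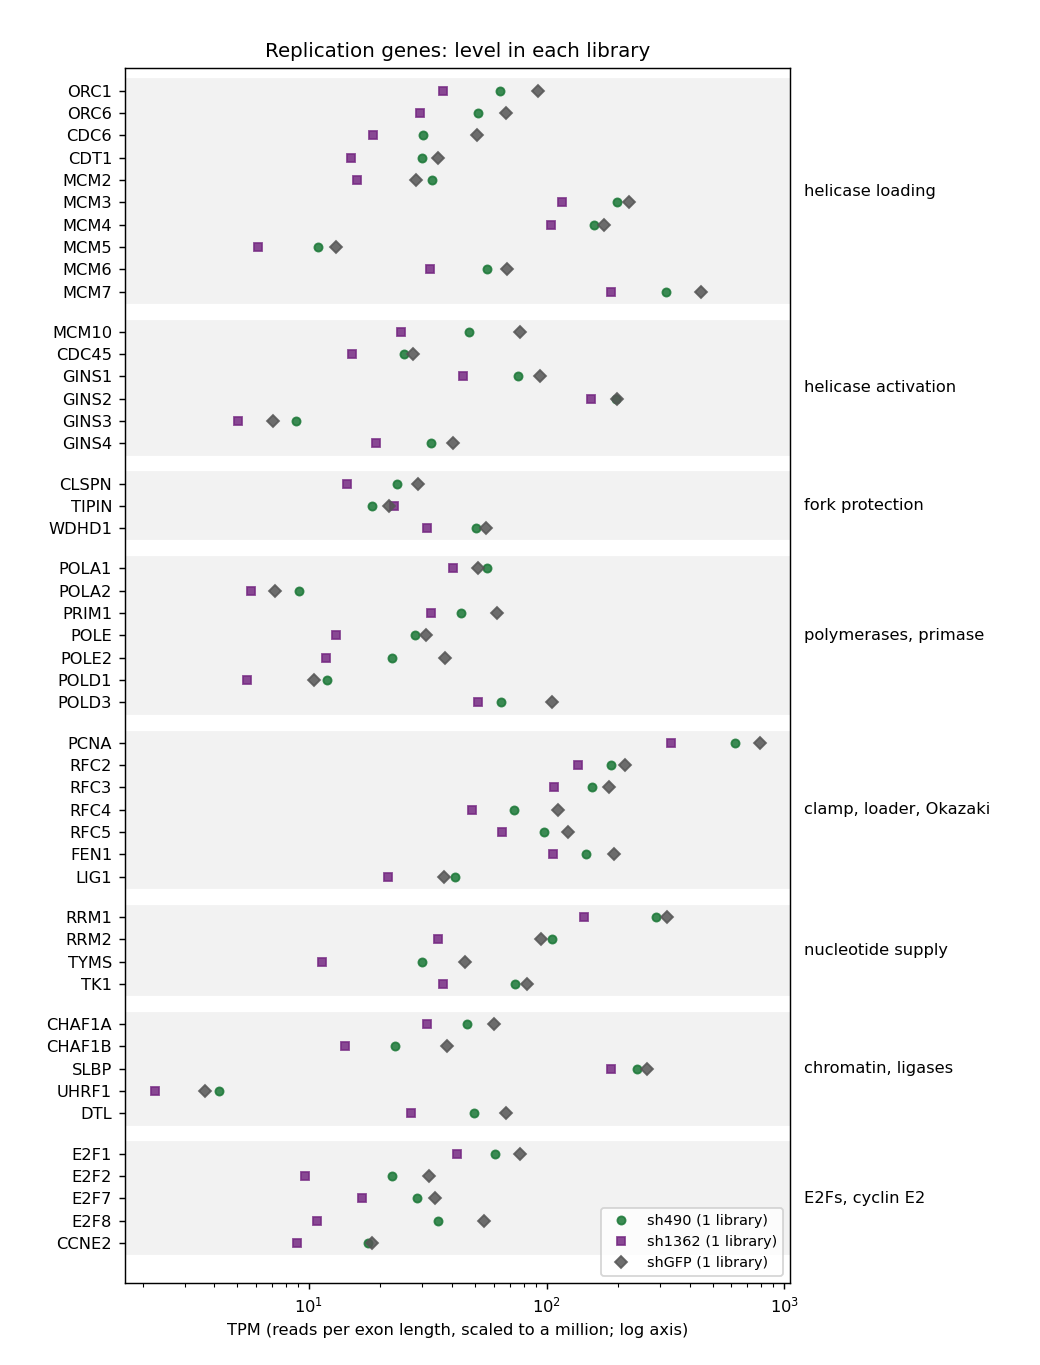
Level of each of the 47 genes in TPM (log axis) in sh490 (circles), sh1362 (squares) and shGFP (diamonds), 1 library each, grouped by role. Squares lie left of the diamonds for every gene but TIPIN, and levels run from 3.65 to 792 TPM in shGFP.

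Replication genes were lower with both YES1 hairpins than in shGFP, slightly with sh490 and by close to 2-fold with sh1362. Summed over the 47 genes, normalised counts were 4753 CPM in shGFP, 3844 in sh490 and 2486 in sh1362. That is 80.9% of shGFP with sh490 (79.5 to 82.3) and 52.3% with sh1362 (51.3 to 53.3). Both percentages share the shGFP library.

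With sh490, 39 of the 46 genes at 5 CPM or more lay below shGFP, 84.8% against 49.9% of all 11638 genes at that level. Their median log2 fold was -0.31, against 0.00 over all genes. None was at least 2-fold lower or higher; over all genes 1.42% were 2-fold lower and 1.39% higher. The genes above shGFP were MCM2, GINS3, POLA1, POLA2, POLD1, LIG1 and RRM2. Of all 47, 31 had a counting interval wholly below the shGFP level, 1 (RRM2) wholly above and 15 across it. Intervals were not counted over all genes, so these counts have no background share beside them.

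With sh1362, 45 of the 46 genes lay below shGFP, 97.8% against 50.8% of all genes. The median log2 fold was -0.95, against -0.01 over all genes. In 18 genes, 39.1%, the level was at least 2-fold lower, against 6.0% of all genes, and in 0 it was 2-fold higher, against 3.3%. The counting interval lay wholly below shGFP in 43 of 47 genes and across it in GINS3, TIPIN, POLA2 and UHRF1. Here too the share over all genes was not counted, and the intervals cover counting error only.

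Set directly against each other, the hairpins differed in the same genes. In sh1362, 45 of 46 genes were lower than in sh490, 97.8% against 51.7% of all genes, with a median log2 difference of -0.64 against -0.02. At least 2-fold lower were 4 genes, 8.70% against 3.88% of all, namely RRM2, TYMS, E2F2 and E2F8; none was 2-fold higher, against 2.02% of all. YES1 went the other way: 29.3 CPM in sh1362 and 20.6 in sh490, 142% of the sh490 level (116 to 175). In bulk RNA, fewer cells in S phase and less of these transcripts per S phase cell cannot be told apart.

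**Figure D3:**
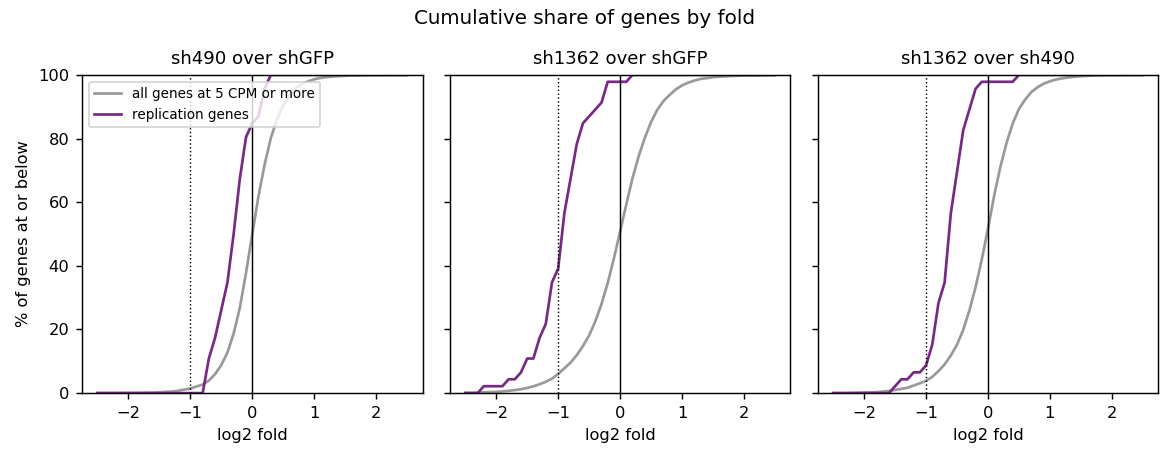
Cumulative share of genes (%) by log2 fold for sh490 over shGFP, sh1362 over shGFP and sh1362 over sh490; purple, the 46 replication genes at 5 CPM or more, grey, all 11638 genes at that level. The dotted line marks 2-fold lower, which 39.1% of the replication genes pass with sh1362 and none with sh490.

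In the only test that the 3 libraries allow, both hairpins were taken as 2 samples of 1 group and compared with shGFP by edgeR's quasi-likelihood test across 15708 genes. The spread came from the 2 hairpins, with 1 residual degree of freedom before moderation, and the lone shGFP library is taken to vary as they did. No label states separate cultures, and the p-values then measure no more than the spread between these libraries, which may be technical. None of the 47 genes passed at a Benjamini-Hochberg adjusted p under 0.05, where 0.0255% of all genes were called lower; their smallest edgeR adjusted p was 0.986. At an unadjusted p under 0.05 there were 8 lower and 0 higher, with 2.08% of all genes lower at that level and 357 of the 15708 higher. DESeq2 gave 6 such lower genes (0.467% of all genes in that fit) and limma-voom 12 (2.16%), with none past adjustment in either. The 8 were CDC6, ORC1, MCM7, MCM10, POLE2, POLD3, RFC4 and CHAF1B, with edgeR log2 folds between -0.82 and -1.13. Where the hairpins differed, as for RRM2 (edgeR log2 fold -0.44, standard error 0.53), that difference is part of the spread. A high adjusted p does not show that levels were alike.

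**Figure D4:**
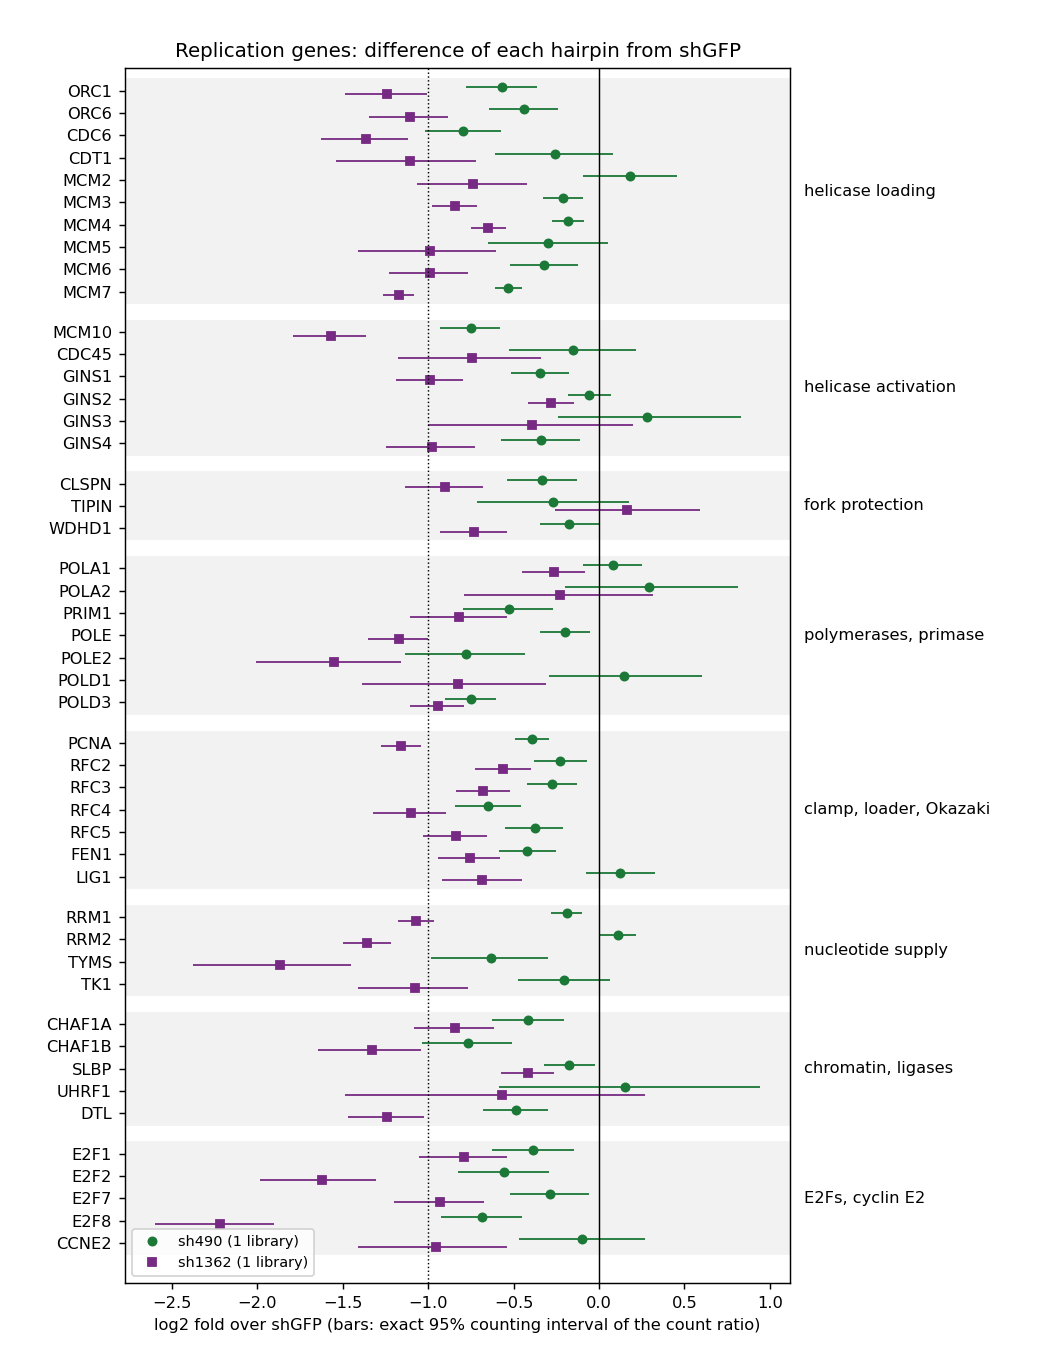
Log2 fold over shGFP of each of the 47 genes with sh490 (circles) and sh1362 (squares), 1 library each, grouped by role; bars are exact 95% counting intervals, the dotted line is 2-fold lower. Squares lie left of circles for every gene but TIPIN, and E2F8 is farthest left at -2.22.

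The listed helicase loading genes were among the lower roles by sum with both hairpins. With sh490 their median log2 fold equalled that of all replication genes, -0.31. Here and for the roles that follow, 3 values in a row are for sh490, sh1362 and shGFP, and 2 folds or percentages are for sh490 and then sh1362, each over shGFP. Their summed level was 77.6% of shGFP with sh490 (75.2 to 80.1) and 50.8% with sh1362 (49.1 to 52.7), with median log2 folds of -0.31 and -1.05. CDC6, the ATPase that recruits the helicase to origins, had 326 counts with sh490, 204 with sh1362 and 346 with shGFP, or 41.2, 27.7 and 71.7 CPM. Both hairpin libraries were lower, at 57.5% (49.3 to 67.1) and 38.6% (32.3 to 46.0) of shGFP; the edgeR log2 fold over both was -1.06 with a standard error of 0.33 (unadjusted p 0.0125, adjusted p 0.986). ORC1, the largest subunit of the origin recognition complex, had 405, 236 and 367 counts in sh490, sh1362 and shGFP. Thus sh490 was at 67.3% and sh1362 at 42.1%, again in that order (edgeR log2 fold -0.87, standard error 0.35, adjusted p 0.986). ORC6, a small subunit of the same complex, lay at log2 folds of -0.44 (sh490) and -1.11 (sh1362), and CDT1, the loader that geminin blocks, -0.26 and -1.11. The complex did not lie lower as a whole. Outside the main list, ORC2 lay at 0.01 and -0.43, ORC3 at -0.47 and -0.17, ORC4 at 0.33 and 0.49, and ORC5 at 0.30 and 0.72. These subunits were named after their values were seen. The 8 further helicase loading genes of the pathway list had medians of -0.17 and -0.26.

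The helicase subunits were lower together with sh1362, by log2 folds from -0.65 to -1.17, and 5 of the 6 were below the control with sh490, from -0.18 to -0.53, with MCM2 above it at 0.18. MCM7, the most abundant of them, had 358 CPM with sh490, 229 with sh1362 and 518 with shGFP, 69.2% (65.5 to 73.0) and 44.3% (41.6 to 47.1) of the control. It was the lowest of the 6 with each hairpin. MCM7 shares 8.94% of its exon bases with AP4M1, and reads on shared bases were not counted. MCM4 was nearest the control of the 6 with sh1362, at 284, 205 and 322 CPM in sh490, sh1362 and shGFP. MCM2 differed most between the hairpins, with 40.0 CPM with sh490, 21.0 with sh1362 and 35.2 with shGFP: the sh490 library was the highest of the 3 and sh1362 the lowest. Its interval for sh490 over shGFP, 93.8 to 137%, spans no difference. MCM2 shares 23.6% of its exon bases with another gene. MCM3, MCM5 and MCM6 lay at -0.21, -0.30 and -0.32 in log2 fold with sh490, and at -0.85, -0.99 and -0.99 with sh1362.

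Genes that switch the loaded helicase on summed to 81.7% of shGFP with sh490 and 58.7% with sh1362. MCM10, which helps convert the loaded helicase into an active one, had 525 counts with sh490, 276 with sh1362 and 540 with shGFP, or 66.4, 37.5 and 112 CPM. It was the lowest of this role with both hairpins, at 59.3% (52.5 to 67.0) and 33.5% (28.9 to 38.8) of shGFP (edgeR log2 fold -1.11, standard error 0.37, adjusted p 0.986). The GINS complex, a helicase cofactor of equal subunits, had unequal folds in RNA. GINS1 had 80.9 CPM with sh490, 51.6 with sh1362 and 103 with shGFP. GINS4, which shares 23.4% of its exon bases with other genes, had log2 folds of -0.34 and -0.98 close to those of GINS1 (-0.34 and -0.99). GINS2 stood at 162, 139 and 169 CPM, 82.4% of shGFP with sh1362 (75.1 to 90.5), the smallest shift of this role with that hairpin. GINS3 had 92, 53 and 46 counts, too few to place sh1362 against shGFP (75.5%, 49.9 to 115). CDC45, the other helicase cofactor, had log2 folds of -0.15 and -0.74.

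The 3 fork protection genes did not lie alike. CLSPN, which encodes claspin, the mediator of checkpoint signals at the fork, had 58.2 CPM with sh490, 39.1 with sh1362 and 73.4 with shGFP. WDHD1, which ties polymerase alpha to the helicase, had 83.1, 56.4 and 93.7 CPM in the same order. TIPIN, the partner of TIMELESS, was the single gene of the 47 above shGFP with sh1362 on the log2 scale (0.16), at 13.0 CPM with sh490, 17.7 with sh1362 and 15.8 with shGFP. With 103, 130 and 76 counts, its interval over shGFP, 83.8 to 151%, spans no difference. Its promoter holds the E2F match printed above, and 21.1% of its exon bases overlap the pseudogene RPL9P25.

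Polymerase and primase genes summed to 79.8% of shGFP with sh490 and 55.7% with sh1362, with wide differences between subunits. POLE2, the second subunit of the leading-strand polymerase epsilon, had 134 counts with sh490, 72 with sh1362 and 141 with shGFP, 58.0% (45.4 to 74.0) and 33.4% (24.8 to 44.7) of that in shGFP. It was the lowest of the role with both hairpins (edgeR log2 fold -1.13, standard error 0.42, adjusted p 0.986). POLE, its catalytic subunit, had 120 CPM with sh490, 61.2 with sh1362 and 138 with shGFP, so sh1362 was at 50.9% of sh490 (45.4 to 57.0). POLD3, an accessory subunit of polymerase delta, was nearly as low with sh490 as with sh1362: 90.9, 79.3 and 153 CPM, 59.4% (53.6 to 66.0) and 51.8% (46.4 to 57.9). Its catalytic partner POLD1 had log2 folds of 0.15 and -0.82, and with POLE it differed most between the hairpins in this role. The polymerase alpha genes lay nearest the control with sh1362, POLA2 with 103, 66 and 51 counts (log2 0.29 and -0.23) and POLA1 with log2 folds of 0.08 and -0.27. PRIM1, the catalytic primase, which works in a complex with them, had -0.53 and -0.82. POLA2 shares 39.4% of its exon bases with other genes and PRIM1 22.2%.

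For the clamp, its loader and Okazaki fragment processing, sums were 79.4% of shGFP with sh490 and 54.8% with sh1362. PCNA had 1774 counts with sh490, 972 with sh1362 and 1421 with shGFP, or 224, 132 and 295 CPM. It stood at 76.2% (71.0 to 81.7) and 44.8% (41.3 to 48.6), the lowest of this role with sh1362. RFC4 had 56.5, 41.1 and 88.7 CPM, 63.7% and 46.4% of shGFP (edgeR log2 fold -0.86, standard error 0.31, adjusted p 0.986). RFC2, in the same loader, stood at 107, 84.6 and 125 CPM and was the nearest to the control with sh1362, at 67.7% (60.4 to 75.8). RFC3 and RFC5 lay at -0.28 and -0.38 in log2 fold with sh490, and at -0.68 and -0.84 with sh1362. RFC5 shares 10.6% of its exon bases with other genes. LIG1, the ligase that joins Okazaki fragments, was highest in sh490, with 70.1 CPM against 39.9 in sh1362 and 64.3 in shGFP. Its interval for sh490 over shGFP, 94.7 to 126%, spans no difference. FEN1, the flap endonuclease that acts before LIG1, had log2 folds of -0.42 and -0.76.

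Of the 8 roles, nucleotide supply, with 4 genes, differed most between the hairpins (median log2 difference -1.06). The 8 further nucleotide supply genes of the pathway list differed less, with a median of -0.42 and none at 2-fold. The 13 G2/M genes differed about as much, with a median of -1.09 and 8 at 2-fold, against 3.88% of all genes. The summed level of the 4 genes was near the control with sh490, 93.6% (89.5 to 97.9), and 43.6% with sh1362 (41.3 to 46.1). With sh1362 all 4 lay 2-fold or more below shGFP, against 6.0% of all genes, and with sh490 none did, against 1.42%. RRM2, the S phase subunit of ribonucleotide reductase, had 1971 counts with sh490, 663 with sh1362 and 1114 with shGFP, or 249, 90.0 and 231 CPM. The sh490 library was thus at 108% of shGFP (100.2 to 116) and the sh1362 library at 39.0% (35.4 to 43.0). RRM1, the large subunit of the same enzyme, had 316, 172 and 361 CPM, 87.6% and 47.6% of the control. TYMS, which makes thymidylate, had 147, 57 and 140 counts and was the lowest of this role with both, at 64.1% (50.5 to 81.3) and 26.7% (19.2 to 36.5). TYMS lies on chromosome 18 from 657653 to 673578, 48.0 kb from YES1, and shares 47.5% of its exon bases with ENOSF1 and TYMSOS. TK1, which salvages thymidine, had log2 folds of -0.21 and -1.08.

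**Figure D5:**
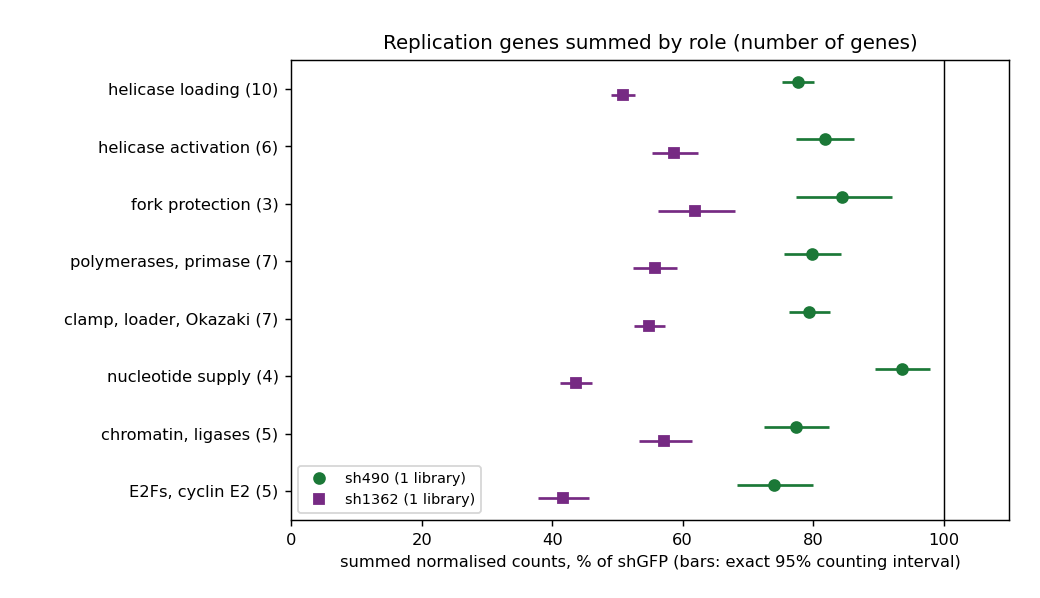
Summed normalised counts of each role as a percentage of shGFP, for sh490 (circles) and sh1362 (squares), 1 library each; bars are exact 95% counting intervals. With sh490 nucleotide supply is highest at 93.6%, while with sh1362 it is among the lowest at 43.6%, beside E2F factors and cyclin E2 at 41.6%.

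Chromatin assembly factors and S phase ubiquitin ligases were lower as well, at 77.3% and 57.2% of shGFP in sum. CHAF1B, a subunit of the histone chaperone CAF-1, had 239 counts with sh490, 150 with sh1362 and 249 with shGFP, or 30.2, 20.4 and 51.6 CPM. It was at 58.6% and 39.5% of the control (edgeR log2 fold -1.03, standard error 0.34, adjusted p 0.986). CHAF1A, the large subunit of that chaperone, had log2 folds of -0.41 and -0.85. DTL, the receptor of the ligase that destroys CDT1 on PCNA, had 63.0, 37.2 and 88.3 CPM in sh490, sh1362 and shGFP. SLBP, which binds the stem-loop of histone messages, was nearest the control, with 117, 98.6 and 132 CPM. UHRF1 had 44, 24 and 24 counts, and its intervals over shGFP (66.5 to 192% and 35.6 to 120%) span no difference.

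The E2F genes and cyclin E2 summed to 74.0% of shGFP with sh490 (68.4 to 80.0) and 41.6% with sh1362 (37.9 to 45.7), the lowest sums of the 8 roles, though within the counting intervals of the next. By median log2 fold, -0.39 and -0.95, they were not the lowest role with either hairpin. E2F8, an atypical E2F that represses the others' targets, had 294 counts with sh490, 93 with sh1362 and 289 with shGFP, or 37.2, 12.6 and 59.9 CPM. At 21.1% of shGFP with sh1362 (16.5 to 26.7) it was the lowest of the 47 genes, and it was at 62.1% with sh490 (52.6 to 73.3). The edgeR log2 fold over both hairpins was -1.26 with a standard error of 0.55 (adjusted p 0.986). E2F2, an activator, had 31.4, 14.8 and 46.2 CPM, log2 folds of -0.56 and -1.62. E2F1, an activator and the highest of the role per exon length (77.1 TPM in shGFP), lay nearest the control with sh1362, at 42.0, 31.6 and 54.9 CPM, 76.4% and 57.6%. E2F7, the other atypical repressor, had log2 folds of -0.29 and -0.93. With sh1362, 1 of these 2 activators (E2F2) and 1 of these 2 repressors (E2F8) lay past 2-fold. CCNE2, which encodes a cyclin that drives S phase entry, had log2 folds of -0.10 and -0.95, with 37.1% of its exon bases shared with other genes.

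Folds overlapped between replication genes with and without an E2F motif, and the difference was not tested. At 5 CPM or more the 22 with one had medians of -0.30 (sh490) and -0.95 (sh1362) in log2 fold, and the 18 without had -0.33 and -0.89; with sh1362 folds ran from -1.87 to 0.16 and from -1.57 to -0.42. Of the genes whose sites are printed above, CDC6, MCM7, POLE, POLE2, PCNA, TYMS, DTL and E2F2 were at least 2-fold lower with sh1362. MCM6, E2F1 and TIPIN were not. The printed genes are only part of those with a match, and of the rest CDT1 alone was 2-fold lower. Among genes searched and without a match, ORC1, ORC6, MCM10, RFC4, RRM1, RRM2, TK1 and CHAF1B were 2-fold lower. The share was 39.1% of the 46 replication genes at 5 CPM or more and 6.0% of all genes. E2F8 was also low with sh1362 and was not searched.

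Other genes of the pathway, 59 on a further list, lay lower with sh1362 too but less evenly. Of the 56 at 5 CPM or more, 36 were below shGFP with sh490 and 47 with sh1362, with medians of -0.16 and -0.67. Over all genes 49.9% and 50.8% were below. At least 2-fold lower were 0 with sh490 and 14 (25.0%) with sh1362, against 1.42% and 6.0% of all genes. None of the 58 tested passed edgeR's adjusted test. At an unadjusted p under 0.05, 327 of all 15708 genes were lower and 357 higher, and of the 58, 4 were lower and 1 higher. Among the lower were CDC7 and DBF4, the kinase pair that fires origins, and CDC25A; the higher one was RB1. The lowest with sh1362 was CDC25A, the phosphatase that frees CDK2, with 37.7 CPM with sh490, 16.8 with sh1362 and 62.2 with shGFP. DONSON, a helicase assembly factor, had 36.4, 14.9 and 46.9 CPM, and MYBL2, an E2F target that drives late cell-cycle genes, 141, 55.3 and 160.

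A few of these pathway genes were higher than in the control. RB1, the restraint on E2Fs, had 813 counts with sh490, 633 with sh1362 and 231 with shGFP, or 103, 86.0 and 47.9 CPM (edgeR log2 fold 0.98, standard error 0.30, unadjusted p 0.0119, adjusted p 0.986). Both hairpin libraries were above shGFP, at 215% with sh490 (185 to 250) and 179% with sh1362 (154 to 210), and sh1362 was at 83.6% of sh490 (75.2 to 92.9). A transcript count says nothing of whether the line makes working RB protein. MCM9, a helicase of repair, had 14.9, 17.4 and 9.54 CPM, and SAMHD1, which breaks down deoxynucleotides, 24.4, 30.4 and 18.2, lowest in shGFP in both cases. Among E2Fs outside the main list, E2F4 and E2F6, which mostly repress, were both above the control, E2F4 at log2 folds of 0.39 and 0.55 and E2F6 at 0.43 and 0.46, while E2F5, of the same kind, lay below it at -0.47 and -0.69. The activator E2F3 lay at 0.03 and -0.09. These 4 were named after their values were seen.

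Genes of mitosis lay beside the replication genes with sh1362 and nearer the control with sh490. The 13 G2/M genes summed to 92.0% of shGFP with sh490 (90.3 to 93.7) and 44.3% with sh1362 (43.3 to 45.3). All 13 were below shGFP with sh1362 and 9 with sh490, against 50.8% and 49.9% of all genes, with medians of -1.17 and -0.13. The proliferation marker MKI67, named after its values were seen, had 808 CPM with sh490, 342 with sh1362 and 887 with shGFP.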

How the data were processed

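The authors deposited unnormalized counts of reads for each gene in 3 tables, 1 for each library. Per the submitters' processing notes reads were checked with FastQC 0.11.8 and aligned with STAR 2.6.1c to GRCh38. Per the file headers, counts were made by featureCounts 1.6.0 over GENCODE 32 exons, with no option for strand, pairs or multiple alignments. Reads on bases shared by several genes, on either strand, and reads aligning to several places were therefore not counted, which lowers overlapping genes and genes with close copies.

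Of 60609 identifiers 60295 were matched to a symbol. The test was edgeR 4.0.16 (R 4.3.3): TMM, filterByExpr, robust quasi-likelihood F test, two-sided, Benjamini-Hochberg adjustment over all genes, both YES1 hairpins against shGFP. It was also run on counts simulated with the means and spread of these same libraries, and the outcome is not reported here. Single libraries were compared by size only, on the log2 CPM scale (prior count 2), over genes averaging at least 5 CPM, and called at 2-fold. Percentages are ratios of TMM-scaled counts with exact conditional intervals. A count of 0 allows up to 3 counts, 0.379, 0.407 and 0.622 CPM in sh490, sh1362 and shGFP. Alternatives were DESeq2 1.42.0, limma-voom 3.58.1, other scalings, filters and prior counts.

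Genes named with full values were, in each role, the 2 lowest and the highest with sh1362, the most different between hairpins, the most abundant in shGFP, and any at an unadjusted p under 0.05; of the other pathway genes, the 3 lowest and 3 highest. The genes, lists and roles were chosen with earlier results of these data known. Most genes of the other lists enter only as counts, sums and medians, and some are not reported here.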

Additional observations from a re-analysis of the deposited data

How the results depend on the processing

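None of the replication genes passed an adjusted test under any of the 6 alternative fits. Without a filter on low counts edgeR called 22 genes higher and 36 lower in all, against 0 and 4, and limma-voom called 0 and 2; 16 replication genes had an unadjusted p under 0.05 and were lower without the filter (2.27% of all genes) and 12 with limma-voom (2.16%), against 8 (2.08%), and the smallest adjusted p of a replication gene was 0.0760 without the filter. The median edgeR log2 fold over both hairpins was -0.59. With 1 hairpin left out no test remained, and the median log2 CPM difference of the 47 genes was -0.95 for sh1362 alone and -0.30 for sh490 alone. The count of replication genes at least 2-fold lower stayed within 1.5 times under every scaling, prior count and filter tried. Medians moved beyond a margin set by the counting interval of the summed counts under 3 settings. These were library totals (sh490 over shGFP -0.27, sh1362 over sh490 -0.67) and totals without mitochondrial and globin genes (sh490 -0.27, sh1362 -0.90). The other, chosen after seeing the data, left out the 9 members sharing at least 10% of their exon bases (sh1362 -0.99). With library totals the all-gene medians moved too, from 0.0009 to 0.0443 (sh490 over shGFP) and from -0.0165 to -0.0487 (sh1362 over sh490). Without mitochondrial and globin genes they were 0.0436 for sh490 and 0.0372 for sh1362, each over shGFP. With a mean of 1 CPM as the limit, 543, 1209 and 876 of all genes were 2-fold lower in the 3 comparisons, against 165, 698 and 452, since more low genes entered. No paired analysis was possible because each hairpin has 1 library and the labels give no replicate numbers. A single library a side limits every hairpin difference, and genes under about 100 counts have wide intervals.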

Other observations

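Cyclin E1, the partner of CDK2 at S phase entry, lay just under the level limit used above and was picked after its values were seen. CCNE1 had 48 counts with sh490, 9 with sh1362 and 37 with shGFP, so the sh1362 library was at 20.1% of sh490 (exact 95% counting interval 8.68 to 41.5). Its relative CCNE2 had 159, 81 and 104 counts.

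The neuroendocrine markers lay on the other side of the control from the replication genes with sh1362. Of the 8, 7 were above shGFP with sh1362 and 4 with sh490, with median log2 folds of 0.63 and -0.03. Of all 11638 genes at 5 CPM or more, 5731 were above shGFP with sh1362 and 5829 with sh490. The marker list summed to 146% of shGFP with sh1362 (144 to 149) and 104% with sh490 (102 to 106). INSM1, a neuroendocrine transcription factor, had 1580 counts with sh490, 2716 with sh1362 and 529 with shGFP (edgeR log2 fold 1.37, standard error 0.41, unadjusted p 0.0120, adjusted p 0.986). NCAM1, a neural adhesion molecule, had 1064, 1982 and 701 counts; the sh1362 library stood highest and sh490 close to the control once scaled (log2 folds of 0.89 and -0.11). The gastrin-releasing peptide gene GRP was the exception, at 321, 210 and 174 counts and a log2 fold of -0.34 with sh1362. No test of a link between the marker lists was made.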
